A study of Drosophila melanogaster with 35 samples.

Results

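The 60S genes are those with a FlyBase symbol of RpL and a number, with or without letters, together with RpLP0, RpLP1 and RpLP2. Mitochondrial mRpL genes and genes whose symbol ends in -like were left out. The rule found 50 of the 17830 genes in the count table of *Drosophila melanogaster* heads: 48 by the reference symbol, and RpL37-1 and RpL37-2, which the authors' deposited table names RpL37a and RpL37b. The study asked how changes in KDM5, a histone demethylase acting on lysine 4 of histone H3, alter transcription and translation. mRNA was sequenced in 23 libraries from whole heads, with 5 libraries of WT KDM5 and 3 each of A224T, D234G, L854F, R873W, Y874C and JmjC. The 5 missense strains model Claes-Jensen syndrome variants of human KDM5C, and JmjC is a synthetic demethylase-dead strain. Ribo-Seq covered 12 libraries, 3 IP and 3 Input of elav;RPL3-FLAG heads as control and 3 of each of elav;RPL3-FLAG;kdm5RNAI heads, labelled neurons. In the Ribo-Seq line a FLAG-tagged RPL3, itself a 60S protein, is carried with elav, a driver active in neurons, and the same line without the RNAI is the control. All flies were held at 25 °C and taken 1 to 5 days after eclosion, with no sex labelled. Whether replicates are separate cultures is not labelled, and p-values then reflect only how these samples vary, which may be technical.

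The 60S subunit is the large part of the cytosolic ribosome, where amino acids are joined into protein. Its proteins hold the ribosomal RNA in shape, line the tunnel through which the new chain leaves, and form a stalk that recruits translation factors. Cells make these proteins in matched amounts, and in flies loss of 1 gene copy of many of them gives the Minute phenotype of short, thin bristles and slow growth.

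Of the 50 genes, 12 lie on 2R, 12 on 2L, 10 on 3L, 10 on 3R and 6 on X (dm6), and 26 overlap another gene, 14 of them a protein-coding one. The library kit keeps strand, but no source used here gives the strand option of the counting, so counts of overlapping members are uncertain. RpL39 (2R 24061853 to 24062431) and RpL12 (2R 24060378 to 24061860) overlap each other at their ends. In the main comparisons 49 members passed the filter on low counts and RpL37-2 did not.

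By the level of roX2, a noncoding RNA that acts in male dosage compensation, the libraries formed separate sets. In CPM, gene counts scaled to a common library total, roX2 was at 19.5 to 41.6 in set 1, with WT 1 and 2 and every library of D234G, R873W and Y874C. It was at 0.151 to 0.999 CPM in set 2, with WT 3 to 5 and every library of A224T, L854F and JmjC. Strain and set cannot be told apart except through WT, so each strain is also given against the WT libraries of its own set, called same-set values. The sets were defined by roX2 alone. Its companion RNA roX1 was at 814 and 859 CPM in WT 1 and 2 and 12.6 to 13.9 CPM in WT 3 to 5, but at 85.97 to 337 CPM in A224T, L854F and JmjC, so the WT libraries of set 2 do not match their strains in roX1. Total counts were 16993554 to 32985353 per library, but 3803077 in D234G 1 and 4960383 in D234G 2. The share of gene counts on mitochondrial genome genes was 9.08 to 11.2% in R873W and 8.19% in Y874C 1, against 4.20% in Y874C 2, 4.58% in Y874C 3 and 6.02 to 7.47% in WT. In bulk heads, fewer cells of a type and less RNA per cell cannot be told apart. The summed level of 6 neuronal markers (elav, nSyb, brp, Syt1, para and VAChT) was 3406 to 5904 CPM. It was 3899 to 4840 CPM in WT, below that in every JmjC library (3406 to 3786) and above it in every R873W library (5198 to 5904), with overlap in the other strains. The summed level of 11 photoreceptor markers was 45084 to 56932 CPM in WT, and every A224T (38904 to 42872), L854F (41422 to 44660) and D234G (40212 to 42508) library lay below every WT library. It was 44014 to 46358 CPM in JmjC, 43369 to 49403 in R873W and 47451 to 50173 in Y874C. The summed level of 10 muscle markers was 12955 to 13862 CPM in D234G, 10574 to 12567 in R873W and 9359 to 12040 in Y874C, above the 5476 to 8135 in WT. The 7 fat body markers were Lsp2, apolpp, Yp1, Yp2, Yp3, FASN1 and Npc2h. Their summed level was 12698 to 14271 CPM in WT 1 and 2 and 58086 to 62249 in WT 3 to 5. It was 10865 to 13696 CPM in D234G, 19711 to 28995 in R873W and Y874C, and 35601 to 69652 in the strains of set 2. Yp1, Yp2 and Yp3 are yolk protein genes and no sex is labelled, so fat body content and sex cannot be told apart in this sum. The summed level of 3 antenna markers (Orco, Obp83a and Obp83b) also split by set. It was 9.89 to 29.6 CPM over the libraries of set 1 and 153 to 385 over those of set 2. The part of such markers in the 60S values was not tested. Kdm5 itself was at 482 ± 33.9 CPM in WT and 454 to 572 CPM on average in the strains, and since the strains carry point changes this does not check their labels.

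Library Y874C 1 stood apart from Y874C 2 and 3 over the 60S genes. Within the subunit, with each library set to the median of its 60S genes, the median absolute log2 difference over 48 members was 0.029 between Y874C 2 and 3. It was 0.19 between Y874C 1 and the mean of Y874C 2 and 3, and 0.13 between Y874C 1 and the mean of R873W, with 27 of 48 members nearer to R873W. Over all 12093 genes, with libraries scaled by TMM and not to the 60S median, Y874C 1 lay 0.19 from the mean of Y874C 2 and 3. It lay 0.18 from the mean of R873W. Over the 48 members on the 60S-median scale, and not over all genes, each R873W library lay 0.090 to 0.11 from the mean of the other R873W libraries. Whether the library is as labelled was not tested. Y874C results are also given without Y874C 1.

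**Figure D1:**
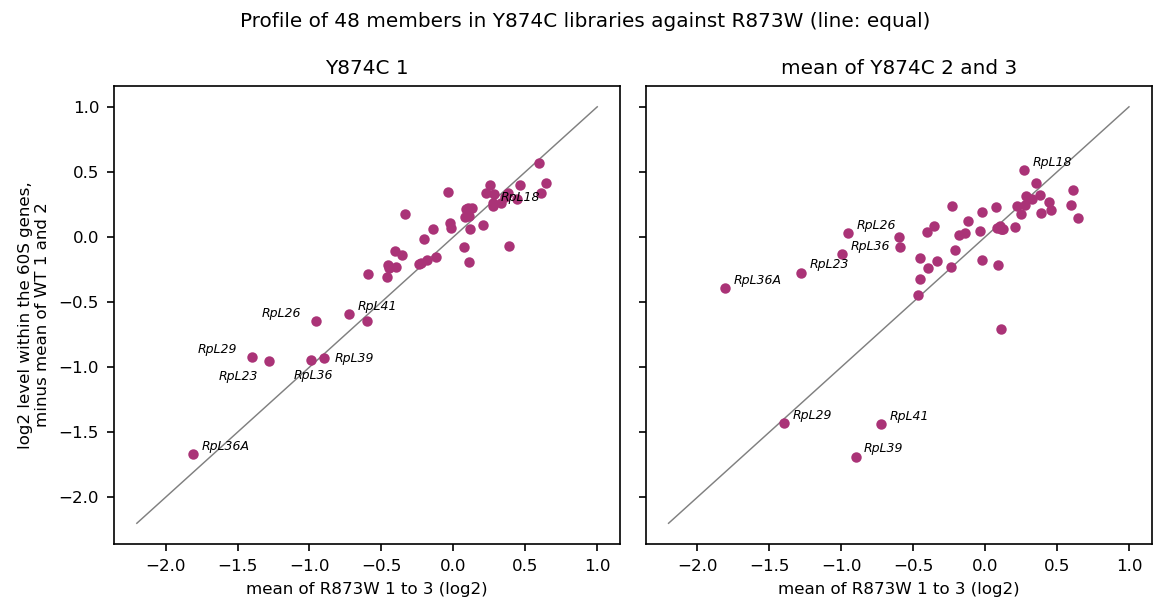
Each of 48 members by its log2 level within the 60S genes, minus the mean of WT 1 and 2, in the mean of R873W (horizontal) and in Y874C 1 or the mean of Y874C 2 and 3 (vertical); both axes subtract the same WT libraries, and the line marks equal values. In Y874C 1, RpL36A and RpL36 lie near the line, while RpL23 (-0.96 against -1.28 in R873W) and RpL26 (-0.64 against -0.95) lie above it. In Y874C 2 and 3, RpL36A, RpL23, RpL36 and RpL26 lie far above it, and RpL39 and RpL41 lie below it.

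Most 60S genes fell in A224T, L854F, JmjC and D234G, more evenly in the first 3 than in D234G. Calls used the quasi-likelihood test of edgeR at a threshold of 0.05 on p-values adjusted by Benjamini-Hochberg over all 12093 genes, against the 5 WT libraries that all strain comparisons share. In A224T 34 of 49 members were lower and 0 higher, where 7.57% of all genes were lower and 7.19% higher, and their median log2 fold was -0.42 against 0.0042 over all genes. In L854F 28 were lower and 0 higher (3.41% of all genes lower, 4.38% higher), with a median of -0.37. In JmjC 40 were lower and 0 higher (14.8% of all genes lower, 12.1% higher), with a median of -0.46. In D234G 31 were lower (19.0% of all genes), with a median of -0.43, and 1 was higher (25.3%). That gene, RpL10Aa, is described with the paralogs. At an unadjusted p under 0.05, 0 members were higher in A224T, L854F or JmjC, and DESeq2 also called 0 higher there.

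The members spread more widely in R873W, and few passed in Y874C. In R873W 25 of 49 members were lower (21.8% of all genes), with a median of -0.23, 1 was higher (RpL10Aa; 21.9% of all genes), and the interquartile range of the log2 folds was 0.56 against 0.23 in A224T and L854F, 0.25 in JmjC and 0.37 in D234G. In Y874C 7 members were lower (10% of all genes) and 4 higher (9.27% of all genes), with a median of -0.061. Without Y874C 1 the Y874C counts were 7 lower and 6 higher of 50, with a median of -0.0071. Same-set counts were 33 lower of 50 in A224T (9.1% of all genes), 29 in L854F (5.49%), 41 in JmjC (14.0%), 35 in D234G (11.6%), 26 in R873W (18.5%) and 8 in Y874C (5.83%). Same-set, 3 members were higher in D234G (22.1% of all genes), 4 in R873W (16.9%) and 0 in Y874C (5.8%) by edgeR's quasi-likelihood test, or 4 in Y874C without Y874C 1. At an unadjusted p under 0.05, 6 members were higher in Y874C same-set.

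The calls depended on which libraries entered the fit. With only the strain and WT in the fit, 15 of 48 members were lower in A224T (2.79% of all genes) and 8 in L854F (1.1%). Without L854F 3, the L854F library lowest in 60S genes, 15 were lower in L854F. Of the 40S genes, 26 of 36 were lower in A224T (7.57% of all genes), 15 in L854F (3.41%), 30 in JmjC (14.8%), 25 in D234G (19.0%), 16 in R873W (21.8%) and 3 in Y874C (10%). Of 11 tested genes for 60S assembly, such as Nmd3, the export adaptor of the pre-60S particle, 5 were lower in A224T, 4 in L854F, 4 in JmjC, 9 in D234G, 11 in R873W and 8 in Y874C, against the same shares of all genes. Same-set these counts were 9, 10, 8, 6, 10 and 2, where 9.1, 5.49, 14.0, 11.6, 18.5 and 5.83% of all genes were lower.

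Summed over the 50 genes, the share of gene counts was 3.69, 3.95, 4.08, 3.64 and 3.38% in WT 1 to 5. It was 3.14, 2.76 and 2.95% in A224T, 3.06, 2.90 and 2.63% in L854F, and 2.86, 3.22 and 3.00% in JmjC. It was 2.85, 2.83 and 2.92% in D234G, 2.81, 3.04 and 3.01% in R873W, and 3.36, 3.85 and 3.82% in Y874C. No library of A224T, L854F, JmjC, D234G or R873W reached the lowest WT library, while Y874C 1 lay just below it and Y874C 2 and 3 within the WT range. The mean in WT was 3.75 ± 0.273% (SD, n = 5). Each of those 5 strains differed from WT with an exact two-sided permutation p of 0.0357 (adjusted over 6 strains, 0.0429), which is the smallest that 3 against 5 libraries can give. For Y874C, at 3.68 ± 0.276%, the exact permutation p was 0.75.

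**Figure D2:**
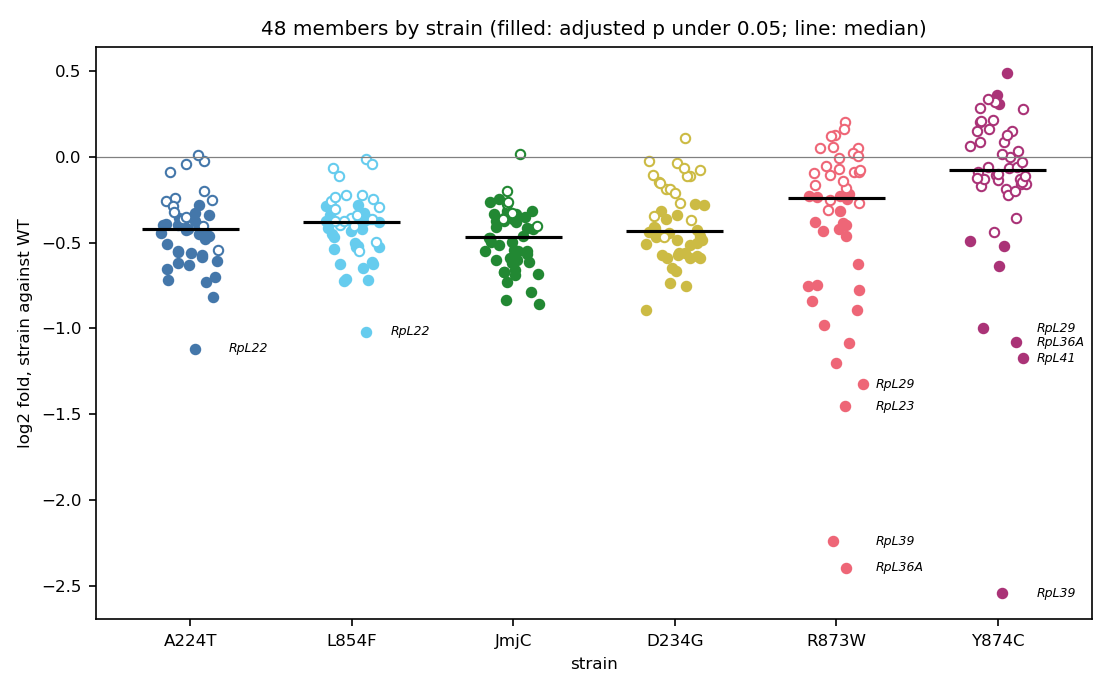
Log2 fold of 48 members in each strain against WT; filled points have an edgeR adjusted p under 0.05, open points do not, and the black line is the median. The medians of A224T, L854F, JmjC and D234G lie near -0.4. R873W has a lower tail led by RpL36A and RpL39, and Y874C has one led by RpL39 and RpL41.

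RpL4, whose protein reaches into the exit tunnel, had the smallest p among the 60S genes in A224T, L854F, JmjC and D234G. It was at 1341, 1504, 1557, 1481 and 1396 CPM in WT 1 to 5. It was at 1005, 956 and 888 CPM in A224T, 1082, 1029 and 929 in L854F and 924, 1056 and 1008 in JmjC. It was at 893, 888 and 975 CPM in D234G, 1443, 1599.9 and 1501 in R873W and 1605, 1676 and 1749.8 in Y874C. All libraries of the first 4 strains lay below every WT library, R873W lay within or above the WT range, and all Y874C libraries lay above it. The log2 fold was -0.62 ± 0.07 (SE) in A224T (edgeR adjusted p = 9.8e-06), -0.52 ± 0.07 in L854F, -0.55 ± 0.07 in JmjC and -0.66 ± 0.071 in D234G. In Y874C it was 0.20 ± 0.069 (edgeR adjusted p = 0.0424), but 0.23 same-set, where it did not pass (edgeR adjusted p = 0.088).

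RpL18, a protein of the solvent face, split the strains in the same way and farther. WT 1 to 5 held 654, 709, 633, 574 and 511 CPM. A224T held 405, 366 and 355 CPM, L854F 415, 381 and 333, JmjC 353, 430.3 and 365 and D234G 366, 361 and 383. R873W held 703, 612 and 709.5 CPM and Y874C 721, 929 and 948, so that the 4 first strains lay below all WT libraries and the Y874C libraries above them. Log2 folds were -0.71 in A224T, -0.71 in L854F, -0.69 in JmjC and -0.74 in D234G. In Y874C RpL18 rose by 0.49 ± 0.11 (edgeR adjusted p = 0.00327), with 0.33 same-set (edgeR adjusted p = 0.0828). Without Y874C 1 the same-set value was 0.47 (edgeR adjusted p = 0.00992).

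RpL32, long used as a reference transcript in fly quantitative PCR under the name rp49, was not level across strains. It held 627, 702, 664, 539 and 497 CPM in WT 1 to 5, 509, 439.6 and 454 in A224T and 447, 483 and 429.7 in JmjC, so that all JmjC libraries and 2 of 3 A224T libraries lay below every WT library. Its log2 folds were -0.37 in A224T, -0.36 in L854F, -0.42 in JmjC and -0.27 in D234G, each past an edgeR adjusted p of 0.05. It was 0.36 in Y874C (edgeR adjusted p = 0.00952), and did not pass there same-set (0.22, edgeR adjusted p = 0.193).

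RpL14 and RpL27 accompanied RpL4 in the lead of the A224T and L854F decreases. RpL14 was at 774 ± 94.0 CPM in WT (n = 5), 500.2 ± 23.6 in A224T (n = 3) and 502 ± 44.5 in L854F (n = 3). RpL27 was at 702, 693, 856, 759 and 739.6 CPM in WT 1 to 5, 548, 483 and 473 in A224T, 378, 431 and 446 in R873W and 529, 530.2 and 546 in Y874C, with no overlap between WT and these strains. Its log2 folds were -0.58 in A224T, -0.61 in L854F, -0.49 in JmjC, -0.47 in D234G, -0.84 in R873W and -0.49 in Y874C. All 6 passed by edgeR's quasi-likelihood test, the last with an adjusted p of 0.000461.

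RpL23A, which flanks the tunnel exit, was among the 4 members with the smallest p in JmjC, at -0.73 ± 0.11 (edgeR adjusted p = 7.08e-05), and RpL28 among those in D234G, at -0.59 ± 0.081 (edgeR adjusted p = 1.92e-05).

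RpL3, which lies close to the site of peptide bond formation, had the lowest log2 fold of all members in D234G against all WT. It was at 1512, 1698, 2292, 2239 and 2249.7 CPM in WT 1 to 5 and at 1022, 1079.8 and 1127 in D234G, below every WT library. The log2 fold was -0.89 ± 0.12 (edgeR adjusted p = 1.21e-05) and -0.60 same-set, where WT 1 and 2 are the lowest WT libraries and RpL18 (-0.90), RpL22 (-0.87) and RpL29 (-0.85) are lower. In the other strains it was -0.56 in A224T, -0.52 in L854F and -0.35 in JmjC, which passed, and -0.16 in R873W and -0.13 in Y874C, which did not (edgeR adjusted p = 0.262 and 0.476).

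Of the 3 stalk genes, RpLP0, the stalk base, was at 1005, 1079.5, 1340.3, 1162 and 1109 CPM in WT 1 to 5, 654, 665 and 709.7 in D234G and 632, 671 and 693 in R873W, with both strains below every WT library. Its log2 fold was -0.75 ± 0.10 in D234G and -0.78 ± 0.10 in R873W (edgeR adjusted p = 1.53e-05 and 1.22e-05). RpLP2, one of its partners, was at 752, 891, 832, 689.6 and 598 CPM in WT, 706, 701 and 757 in D234G and 809, 881 and 835 in R873W. Both strains lay inside the range of the 5 WT libraries, but D234G 1 and 2 lay below both WT 1 and 2. The RpLP2 log2 folds against all WT were -0.061 and 0.16 and did not pass (edgeR adjusted p = 0.681 and 0.222). RpLP1, the other partner, was lower in both strains against all WT, at -0.57 and -0.38 (edgeR adjusted p = 0.000362 and 0.00896). RpLP1 was at 896 to 1009 CPM in WT 1 and 2 and at 1027 to 1289 CPM in WT 3 to 5. In JmjC all 3 were lower, with RpLP0 at -0.46, RpLP1 at -0.37 and RpLP2 at -0.60 (largest edgeR adjusted p = 0.0148).

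RpL5 and RpL11, which enter the subunit together with the 5S rRNA, both fell in D234G against all WT, with log2 folds of -0.58 and -0.41 (edgeR adjusted p = 0.00202 and 0.00197). Same-set RpL5 was at -0.19 and did not pass (edgeR adjusted p = 0.107), and RpL11 was at -0.35 (edgeR adjusted p = 0.022). RpL5 varied widely in WT, at 1915 ± 471 CPM (n = 5) against 1283 ± 17.3 in D234G (n = 3). In A224T RpL11 was lower at -0.46 (edgeR adjusted p = 0.00326), and RpL5 was at -0.32 and did not pass (edgeR adjusted p = 0.126), though same-set it was -0.55 and passed (edgeR adjusted p = 9.1e-05). RpL15, an early-binding protein of the core, passed in none of the 6 strains against all WT. Its log2 folds ran from -0.27 in JmjC to -0.074 in D234G (smallest edgeR adjusted p = 0.0846). RpL15 was at 713 to 738 CPM in WT 1 and 2 and at 851 to 1053 CPM in WT 3 to 5, so these folds carry the difference between the sets.

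A group of members fell far more than the rest of the subunit in R873W, and part of that group in Y874C. RpL36A encodes a protein near the site from which spent tRNA leaves, and RpL39, RpL41 and RpL29 encode small basic proteins. RpL36A was at 383, 379, 607, 509 and 471 CPM in WT 1 to 5, at 86.3, 80.4 and 101 in R873W and at 107, 284 and 274 in Y874C. All R873W libraries lay below every other library, and Y874C 1 lay next to them, while Y874C 2 and 3 lay between them and the lowest WT library. The other strains held 326 to 431 CPM. The log2 fold was -2.40 ± 0.23 in R873W (edgeR adjusted p = 4.81e-07, same-set -2.11) and -1.08 ± 0.22 in Y874C (edgeR adjusted p = 0.00202), or -0.74 without Y874C 1 (edgeR adjusted p = 0.00226).

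RpL39, whose protein lines the exit tunnel, was low in both strains. It was at 195, 126, 530.2, 427 and 348 CPM in WT 1 to 5, 62.4, 71.6 and 72.4 in R873W and 73.6, 49.3 and 44.5 in Y874C, and at 211 to 349.6 CPM in the other strains. The R873W and Y874C libraries lay below all others, yet WT 1 and 2 were also far below WT 3 to 5. Against all WT the log2 fold was -2.24 ± 0.33 in R873W (edgeR adjusted p = 3.93e-05) and -2.54 ± 0.33 in Y874C (edgeR adjusted p = 3.8e-05), and same-set -1.24 and -1.54. D234G was -0.37 against all WT and did not pass (edgeR adjusted p = 0.348), but same-set it was higher, at 0.63 (edgeR adjusted p = 0.0239).

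RpL41, a very short peptide between the subunits, and RpL29 fell in both strains. RpL41 was at 1138, 966, 1168, 1000.1 and 866 CPM in WT 1 to 5, 521, 468 and 573 in R873W and 622, 374 and 372 in Y874C, with both strains below every WT library. RpL29 was at 658, 560.0, 484, 378 and 316 CPM in WT, 175, 158 and 240.5 in R873W and 287, 214 and 219 in Y874C, again without overlap. The log2 folds of RpL41 were -0.98 and -1.17, and those of RpL29 -1.32 and -1.0. All 4 passed by edgeR's quasi-likelihood test, with adjusted p-values of 3.51e-05, 2e-05, 3.09e-05 and 0.00104.

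RpL23, RpL36 and RpL26 fell in R873W and, among the Y874C libraries, were low in Y874C 1. RpL23 was at 655, 705, 737, 577 and 476 CPM in WT 1 to 5, 209.6, 215 and 265 in R873W and 313, 553 and 529.5 in Y874C. RpL36 was at 665, 725, 765, 610.0 and 521 CPM in WT, 280.2, 269.6 and 308 in R873W and 322, 620.4 and 601 in Y874C. RpL26, which sits by the tunnel exit, was at 639, 687, 622, 537 and 489 CPM in WT, 261, 263 and 318 in R873W and 379.5, 639.8 and 661 in Y874C. For all 3 genes R873W and Y874C 1 lay below every WT library. Y874C 2 and 3 lay within the range of the 5 WT libraries, but below both WT 1 and 2 for RpL23 and RpL36. The R873W log2 folds were -1.45 ± 0.16, -1.20 ± 0.16 and -1.08 ± 0.15 (edgeR adjusted p = 2.25e-06, 1.38e-05 and 2.11e-05), with same-set values of -1.58, -1.30 and -1.25. In Y874C they were -0.44, -0.35 and -0.087 and did not pass (edgeR adjusted p = 0.0548, 0.114 and 0.732), and same-set -0.56, -0.45 and -0.25, which did not pass either (edgeR adjusted p = 0.0559, 0.13 and 0.382).

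**Figure D3:**
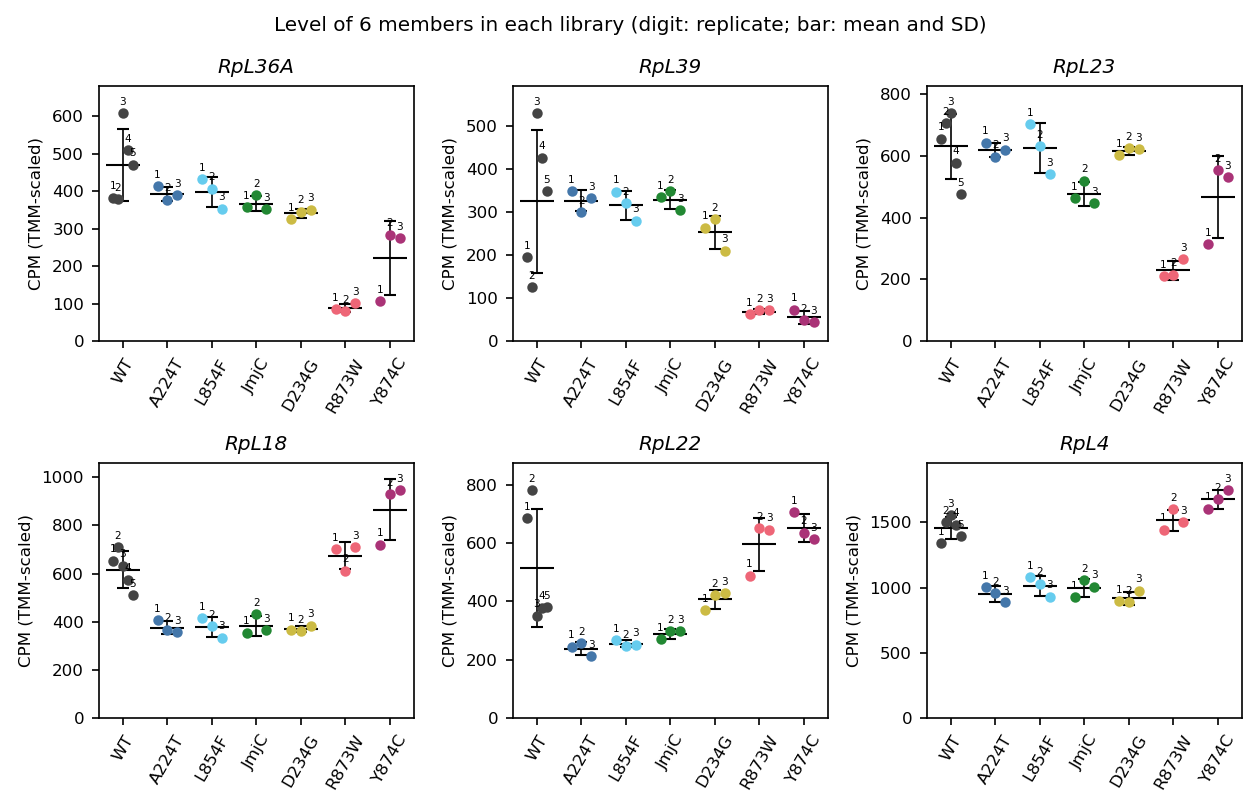
CPM (TMM-scaled, linear axis from 0) of 6 members in each of the 23 libraries, with the replicate number above each point and the group mean ± SD as a bar. RpL36A and RpL23 are lowest in R873W, RpL39 is lowest in R873W and Y874C, Y874C 1 lies apart from Y874C 2 and 3 for RpL36A, RpL23 and RpL18, and WT 1 and 2 lie apart from WT 3 to 5 for RpL39 and RpL22.

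RpL23 overlaps inaD, RpL36A overlaps CCDC53, RpL29 overlaps CG9752 and RpL41 overlaps NaCP60E, whereas RpL36, RpL26 and RpL21 overlap no gene. The mitochondrial share was highest in the same libraries, R873W and Y874C 1, in which RpL36A, RpL23, RpL36 and RpL26 were lowest, and its part in these values was not tested. RpL21 was low in both strains in all libraries, at 343, 416 and 418 CPM in R873W and 476, 470.1 and 460.3 in Y874C against 663, 655, 902, 761 and 665 in WT 1 to 5. Its log2 folds were -0.89 ± 0.1 and -0.64 ± 0.098 (edgeR adjusted p = 2.12e-06 and 0.000205).

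Set to the median of the 60S genes in each library, so that a value says how a member departs from its subunit, 15 members were lower and 11 higher in R873W. On this scale 8.66% of all genes were lower and 37.4% higher, and the median of all genes was 0.26. RpL36A (-2.13), RpL39 (-1.97), RpL23 (-1.18), RpL29 (-1.05), RpL36 (-0.93), RpL26 (-0.81), RpL41 (-0.71), RpL21 (-0.63), RpL27 (-0.58) and RpLP0 (-0.51) were lower by 0.5 or more on the log2 scale. In Y874C 8 were lower (5.87% of all genes) and 8 higher (9.15%), led downwards by RpL39 (-2.46), RpL41 (-1.09), RpL36A (-1.03), RpL29 (-0.91) and RpL21 (-0.57) and upwards by RpL18 (0.55). Same-set, RpL39 was at -0.93 in R873W, above RpL36A (-1.79), RpL29 (-1.38), RpL23 (-1.27), RpL36 (-0.98) and RpL26 (-0.94), and at -1.43 in Y874C. Without Y874C 1 there were 7 lower and 7 higher of 50 against all WT.

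In the other strains few members departed from the subunit by that much. D234G had 9 lower (4.74% of all genes) and 9 higher (52.2%), with RpL3 at -0.53 ± 0.13 (edgeR adjusted p = 0.0013), but -0.19 same-set, where it did not pass (edgeR adjusted p = 0.096). A224T had 5 lower (1.31%) and 6 higher (55.0%), L854F 4 lower (0.951%) and 5 higher (50.2%), and JmjC 4 lower (2.18%) and 3 higher (52.0%). Leaving out each JmjC library in turn gave 0 to 3 calls in JmjC, and same-set 0 of 50 members departed from the subunit by edgeR's quasi-likelihood test (46.7% of all genes), with 2 at an unadjusted p under 0.05. RpL22 was -0.67 in A224T and -0.60 in L854F against all WT (edgeR adjusted p = 0.00972 and 0.0193), but -0.22 and -0.15 same-set, where neither passed (edgeR adjusted p = 0.128 and 0.295).

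**Figure D4:**
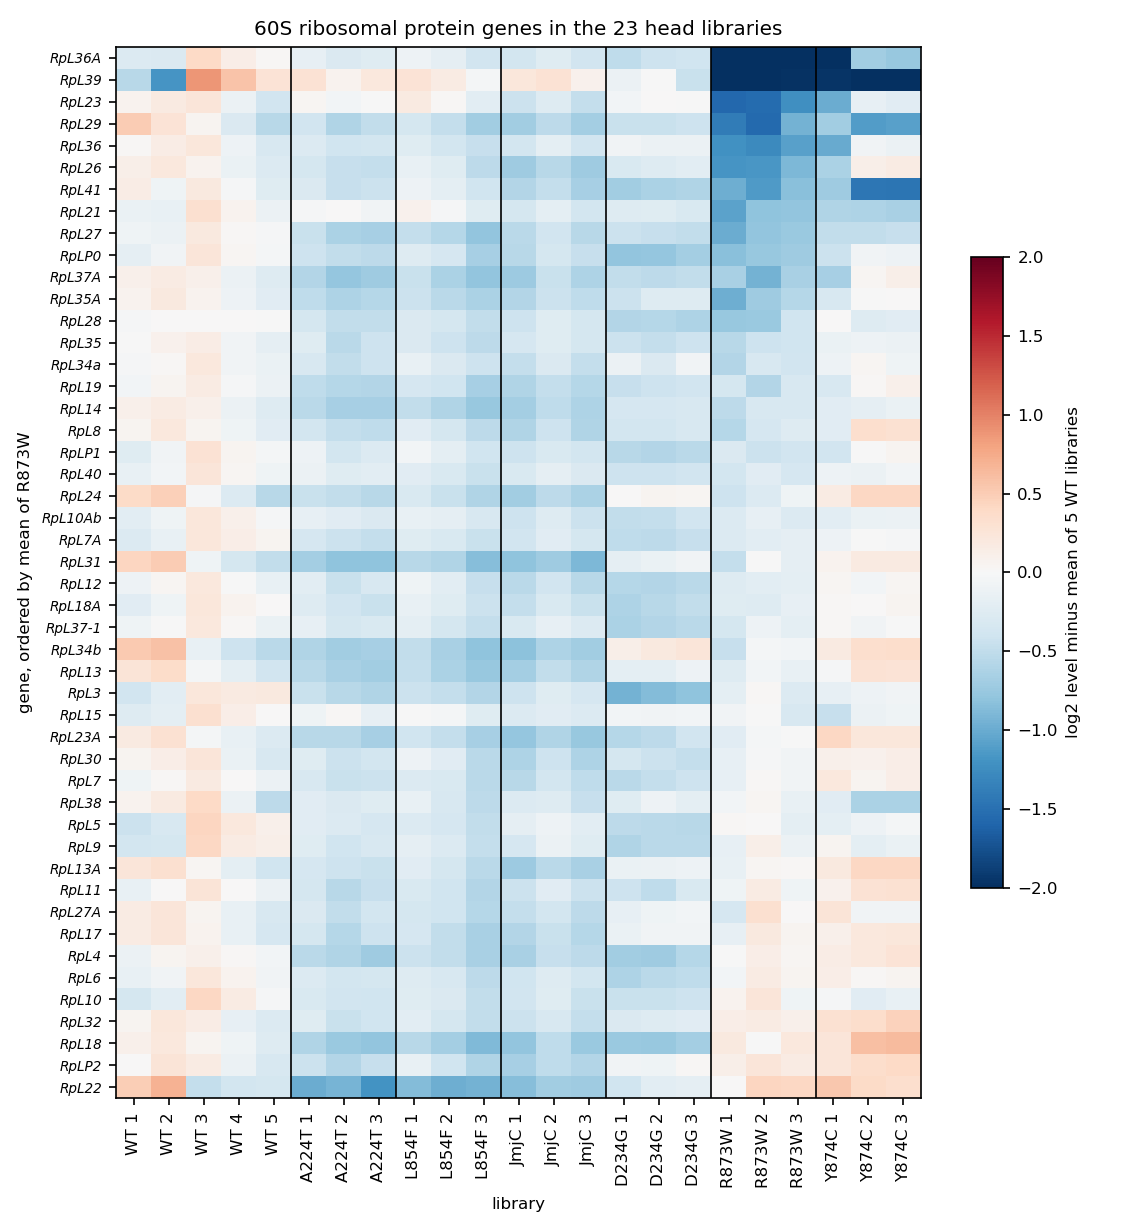
Log2 level of 48 members (rows, ordered by the mean of R873W) in the 23 libraries (columns), minus the mean of the 5 WT libraries; blue is lower, red is higher, and the colour saturates at 2. A224T, L854F, JmjC and D234G are mostly pale blue, less evenly in D234G. R873W and Y874C 1 share a dark block at the top that Y874C 2 and 3 share only in part.

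Tested against each other with no WT library in the contrast, A224T, L854F and JmjC had no 60S gene called between them, which does not show that they are alike. The F-test of edgeR over the 3 strains called 0 of 49 members (18.1% of all genes called; smallest adjusted p = 0.138), with 2 members at an unadjusted p under 0.05, while a likelihood ratio test of DESeq2 on these 9 libraries called 8. Without L854F 3 the F-test called 1 member. Over 48 members the log2 folds of A224T against L854F ran from -0.17 to 0.13, with 95% intervals that reached from -0.64 to 0.74. Those of JmjC against A224T ran from -0.38 to 0.28, with intervals from -0.74 to 0.76, and those of JmjC against L854F from -0.39 to 0.20, with intervals from -0.75 to 0.75.

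Among D234G, R873W and Y874C, the F-test for a difference between any of the 3 called 41 of 49 members where it called 45.6% of all genes. Set to the subunit median, it called 30 of 49 members where it called 47.8% of all genes. R873W against D234G had 10 members lower (23% of all genes) and 16 higher (13.7%). RpL36A (-1.93), RpL23 (-1.42) and RpL36 (-1.09) were lower in R873W, and RpL4 (0.72 ± 0.078), RpL18 (0.87), RpL3 (0.73) and RpL6 (0.62) were higher, the first with an edgeR adjusted p of 2.98e-06. Y874C against D234G had 4 lower (19.3% of all genes) and 26 higher (9.77%), with RpL18 at 1.23, RpL4 at 0.87 and RpL39 at -2.18. Y874C against R873W had 16 higher (9.62% of all genes) and 0 lower (11.0%) in the edgeR test, and 20 higher and 2 lower of 50 without Y874C 1. At an unadjusted p under 0.05, 2 were lower with Y874C 1 included. The 2 called lower without it were RpL38 (-0.55) and RpL41 (-0.45), and RpL36A stood at 1.32 with and 1.68 without Y874C 1.

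The WT libraries of the 2 sets, of 1 genotype, also differed at 60S genes. In WT 3 to 5 against WT 1 and 2, 9 of 50 members were lower (12.6% of all genes) and 9 higher (13.0%), which is close to the share among all genes. RpL22, another protein of the tunnel exit region, was at 685, 782, 351, 378 and 380.1 CPM in WT 1 to 5, with all set 2 libraries below both set 1 libraries. It had a log2 fold of -1.0 ± 0.11 (edgeR adjusted p = 1.94e-06). RpL31 (-0.77), RpL24 (-0.71), RpL29 (-0.64) and RpL13 (-0.53) were also lower, and RpL39 (1.43), RpL5 (0.62), RpL9 (0.60) and RpL3 (0.49) higher. Values of these genes against all 5 WT libraries therefore carry the difference between sets. RpL22 in A224T, for one, was -1.12 against all WT and -0.65 same-set, and RpL22 in D234G -0.34 and -0.87. Without WT 1 the comparison between the sets called 11 members in all instead of 18, in a fit where set 1 is WT 2 alone and the lone library is assumed to vary like the other groups.

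Paralogs of 1 protein differed. RpL34b was at 645, 676, 404, 337 and 308 CPM in WT 1 to 5 and RpL34a at 90.9, 93.4, 107, 87.4 and 84.2 CPM. Between the WT sets RpL34b had a log2 fold of -0.92 (edgeR adjusted p = 1.11e-05), with no overlap, and RpL34a of 0.00. Same-set, both were lower in JmjC (-0.37 and -0.43), and in R873W RpL34b was at -0.74 and RpL34a at -0.44, all called by edgeR's quasi-likelihood test (adjusted p = 0.0172, 0.00217, 0.000111 and 0.00321). Reads of near-identical stretches could be split between such copies.

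RpL10Ab was at 734 ± 87.4 CPM in WT (n = 5), and its copy RpL10Aa had no count in any WT library. RpL10Aa reached 5.99 CPM in D234G 1, 7.06 in D234G 3, 1.66 in R873W 2 and 0.255 in R873W 3, and was at 0 in D234G 2 and at most 0.0544 elsewhere. It was called higher in D234G (edgeR adjusted p = 0.000295) and R873W (edgeR adjusted p = 0.00672), and the second call did not pass without R873W 2 (edgeR adjusted p = 0.0623). With D234G 2 as the only D234G library it was at 0 in both groups. The summed level of 26 male reproductive tract markers was high in the same libraries, at 1073 CPM in D234G 1, 785 in D234G 3, 176 in R873W 2 and 441 in R873W 3, against 1.02 in D234G 2, 18.4 in R873W 1 and 1.71 to 7.52 in the rest. The part of such RNA in RpL10Aa was not tested. RpL37-2, left out by the filter in the main comparisons, likewise reached 0.521 CPM in D234G 1 and 1.75 in D234G 3 and was at most 0.209 elsewhere, while RpL37-1 was at 837 ± 80.7 CPM in WT. With D234G 2 as the only D234G library 17 members were lower, and 23 with D234G 3 alone, in fits that assume the lone library to vary like the other groups.

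Position and size were compared with the folds as a description. In A224T the 6 X-linked members had a median log2 fold of -0.41 and the 43 autosomal ones -0.42. In the same order the medians were -0.39 and -0.37 in L854F, -0.33 and -0.47 in JmjC and -0.39 and -0.43 in D234G. They were -0.22 and -0.24 in R873W and -0.041 and -0.087 in Y874C. Same-set, with 44 autosomal members, they were -0.36 and -0.43 in A224T, -0.39 and -0.37 in L854F and -0.34 and -0.48 in JmjC. D234G had same-set medians of -0.41 and -0.42, R873W -0.25 and -0.28 and Y874C -0.11 and -0.040. Spearman's rho between the log2 fold and the span of the gene over 48 members, which share libraries, was -0.26 in A224T, -0.30 in L854F, 0.0038 in JmjC, -0.28 in D234G, 0.32 in R873W and 0.24 in Y874C. Same-set it was -0.43, -0.42, -0.19, -0.19, 0.37 and 0.41 in that order. The span includes introns and is not the length of the mRNA.

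In the Ribo-Seq samples with kdm5 knocked down, labelled neurons, transcripts of most 60S genes fell, and ribosome footprints fell at some of them. The headers do not say whether IP or Input libraries gave the RNA folds. RNA and footprints may therefore not come from the same cells. Footprint mean counts of the members were lower (82.5 to 7351) than RNA mean counts (1868 to 34394) in the authors' deposited table, and the numbers of calls were not tested against each other. The authors' deposited table gives folds of knockdown against control for RNA and footprints, read here as log2 although its header does not name the base, and Kdm5 itself was at -0.97 in RNA and -2.02 in footprints in the authors' deposited table. By the authors' deposited table, of 49 members with an adjusted p there were 45 lower in RNA (10.7% of all genes) and 0 higher (10.1%), with a median of -0.46. RpL15 (-0.26), RpL36 (-0.27) and RpL39 (-0.34) were below 0 in RNA in the authors' deposited table without passing (adjusted p = 0.0679, 0.0941 and 0.13). For RpL37-2 the authors' deposited table gives mean counts of 1.67 in RNA and 1.13 in footprints, too few to read, and for RpL10Aa 0 and 3.76.

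Footprints were lower at 18 of 49 members in the authors' deposited table (18% of all genes) and higher at 1, RpL21 (7.22% of all genes), with a median log2 fold of -0.27 and 44 of 50 members below 0. All 18 were also lower in RNA in the authors' deposited table, while 26 members were lower in RNA with no call in footprints. RpL26 had a footprint log2 fold of -0.84 (adjusted p = 4.47e-08) and an RNA fold of -0.63 in the authors' deposited table. RpL3, the protein tagged in this line, had -0.78 in footprints and -0.57 in RNA in the authors' deposited table. Whether reads of the tagged copy are counted in these RpL3 folds is not given. RpL7A (-0.62 in footprints, -0.35 in RNA), RpL4 (-0.47 and -0.53) and RpL23 (-0.52 and -0.42) had the next smallest footprint p-values in the authors' deposited table. RpL21 had an RNA fold of -0.38 and a footprint fold of 0.68 in the authors' deposited table (adjusted p = 0.0241 and 0.000358).

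Over the 48 members with 10 or more footprints on average, the footprint fold minus the RNA fold, taken here from the authors' deposited table with no test, had a median of 0.20 and was above 0 at 38. Over the 6272 genes with 100 or more RNA and footprint counts on average, the median was 0.056 and 56.4% lay above 0 in the authors' deposited table. The members with the largest such difference were RpL21 (1.06), RpL41 (0.94), RpL17 (0.80), RpL14 (0.73) and RpL36A (0.64) by the authors' deposited table, and the lowest RpL7A (-0.27). RpL41 rests on a mean of 82.5 footprint counts and RpL36A on 124 in the authors' deposited table, and only RpL21 of these 5 passed in footprints. The authors' deposited table places 33 members in its class Buffering, 12 in mRNA abundance and 5 in No change. Of all genes it places 12.8%, 4.55% and 71.5% there. The members in Buffering and mRNA abundance are those it calls lower in RNA, so their excess restates the RNA calls. Between these classes, members split (33 to 12) much as all genes do (12.8% to 4.55%). No buffering particular to the members is therefore read from the authors' deposited table. Its column for translation efficiency follows the footprint fold (median absolute difference 0.0233 over 6272 genes) more closely than the footprint minus RNA fold (0.199), so no efficiency is read from it here. The whole-head RNA-seq and the Ribo-Seq samples differ in labelled tissue, genotype and assay, and were not tested against each other.

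**Figure D5:**
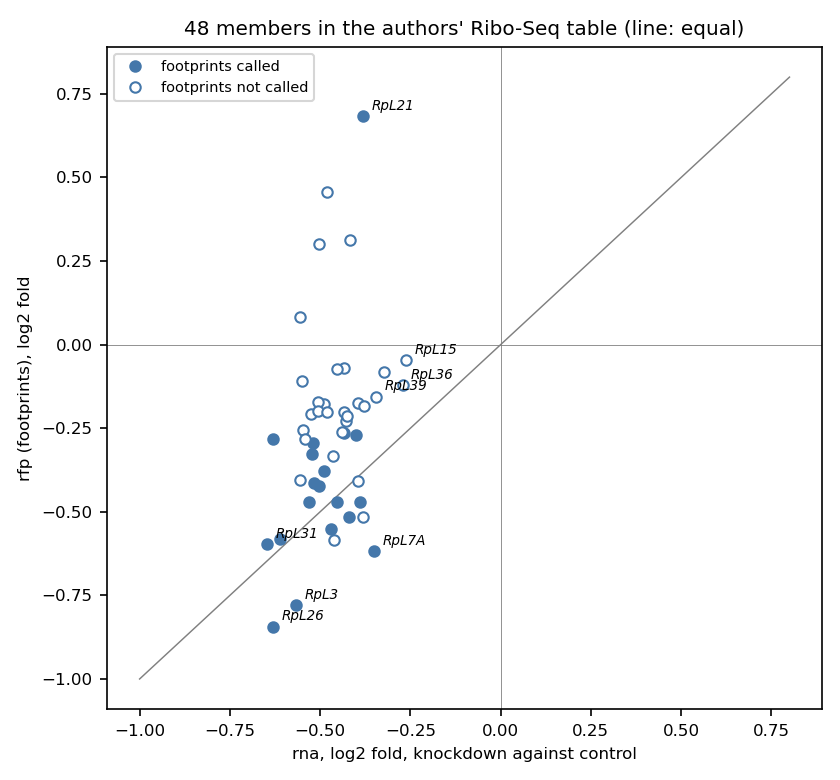
RNA log2 fold (horizontal) and footprint log2 fold (vertical) of 48 members in kdm5-knockdown against control samples, labelled neurons, from the authors' deposited table. Filled points have a deposited footprint adjusted p under 0.05, and the line marks equal folds. All 48 points lie left of 0 in RNA, and most lie above the line.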

How the data were processed

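Whole-head RNA-seq was deposited by the authors as raw read counts per gene for 23 libraries. Tools named, with no version or strand option, per the submitters' processing notes, are STAR, featureCounts, fastp and DESeq2, on build dm6. For Ribo-Seq, per the file headers, the authors deposited 1 table of the knockdown against the control with log2 folds (base not named), adjusted p-values and mean counts whose scaling is not given. It holds no values per library, so no test of it was made here. The transcript with the most RNA and footprint counts stood for each gene.

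Rows other than genes (6052 of 23882) were left out. Counts were scaled by TMM and filtered by filterByExpr in edgeR 4.0.16 (R 4.3.3), leaving 12093 genes, and were tested with the quasi-likelihood F-test in 1 model of all 7 groups, at a Benjamini-Hochberg adjusted p under 0.05. Same-set values came from a model with WT split by roX2, at 5 CPM, that kept 12925 genes. In subunit-relative values the median 60S gene set the scale. CPM values are TMM-scaled. The summed share was compared by an exact permutation test (Python 3.11.15). DESeq2 1.42.0, other scalings and filters, leaving out libraries and a replicate block were the alternatives. The scripts were tested on simulated data.

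Members and lists were chosen with earlier results of these data known. Named were the 4 members with the smallest p in each direction per comparison, those 0.5 or more on the log2 scale from their subunit, paralogs, RpL3, and Ribo-Seq calls. RpL5, RpL11, RpL15, RpLP1 and RpLP2 were chosen after their values were seen. No sequences were used here.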

Additional observations from a re-analysis of the deposited data

How the results depend on the processing

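The number of members lower in a strain depended most on which libraries shared the fit. With only the strain and WT in the fit it was 15 in A224T and 8 in L854F, and with D234G 2 alone it was 17 in D234G. Leaving out each library in turn gave 23 to 36 calls in A224T, 28 to 32 in D234G, 30 to 41 in JmjC, 15 to 34 in L854F, 19 to 26 in R873W and 6 to 9 in Y874C. It gave 33 to 43 calls between the strains of set 1, 0 to 1 between those of set 2 and 11 to 21 between the WT libraries of the sets. For members lower or higher relative to the subunit the ranges were 5 to 12 in A224T, 10 to 23 in D234G, 0 to 11 in JmjC, 4 to 10 in L854F, 21 to 29 in R873W and 13 to 18 in Y874C, and without the filter on low counts there were 6 calls in A224T and 3 in JmjC. No called member changed sign under any alternative run. The share of counts lost its call in each case of a library left out, since fewer permutations remain. Its difference from WT then ranged from -0.890 to -0.702 percentage points in A224T, -0.971 to -0.796 in D234G, -0.817 to -0.638 in JmjC, -0.979 to -0.765 in L854F, -0.885 to -0.710 in R873W and -0.162 to 0.0898 in Y874C, where it was above 0 without Y874C 1 (0.0898) and without WT 3 (0.0128). Library size scaling alone moved the median log2 fold of all genes in JmjC by 0.14. In the authors' deposited table, an adjusted p under 0.01 left 10 members lower in footprints, and counting all 132 transcripts gave 44 lower in footprints and 117 in RNA.

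Same-numbered libraries did not deviate together (0 of 18 correlations over 0.1, from -0.11 to 0.056), so the numbers do not pair the samples. A replicate block in the fit gave, as members lower, 36 in A224T, 36 in D234G, 40 in JmjC, 31 in L854F, 26 in R873W and 9 in Y874C, and relative to the subunit 10 in D234G, 20 in JmjC and 14 in L854F. Depth limits D234G 1 and 2 most, and RpL10Aa and RpL37-2 rest on few counts.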
